A study of Homo sapiens with 8 samples.

Results

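The genes described here are 40 genes of DNA replication and S phase, taken by symbol from a list of replication licensing, fork, nucleotide supply and G1/S genes. That list was chosen with earlier results of these data known, so its shares set beside those of all genes are descriptions only. All 40 were found among the 60652 gene rows of the count tables, and all 40 passed the filter on low counts that left 16606 genes for testing. Messenger RNA was sequenced from HEK293T cells, a human embryonic kidney line that here carries a TRE3G-GFP reporter. The cells were transfected with plasmids for an activator and a guide RNA, grown in medium with 10% serum, and sorted for mCherry and BFP 2 days later. There were 4 groups of 2 libraries each. The group dCasMINI-VPR_sgTet (sgTet) had the dCasMINI-VPR activator with a guide named Tet, and dCasMINI-VPR_sgNT (sgNT) had the same activator with a non-targeting guide. The group dCas12a-VPR_crTet (crTet) had dCas12a-VPR with a Tet guide, and dCas12a-VPR_crNT (crNT) had dCas12a-VPR with a non-targeting guide. VPR joins the VP64, p65 and Rta activation domains, and dCasMINI and dCas12a are Cas proteins that bind DNA without cutting it. Every group therefore carried an activator and a guide, and untransfected cells were not analysed here. All libraries came from 1 reporter line under transient transfection, and the labels do not say whether replicates came from separate cultures, so p-values may measure technical spread alone.

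Cells prepare for replication in G1, when the origin recognition complex, CDC6 and CDT1 load the MCM helicase onto DNA, and start it in S phase, when CDC45 and the GINS proteins join the helicase. Polymerases, the PCNA clamp with its loader, and the single-strand binding protein RPA then copy the strands, while other enzymes supply nucleotides and pack the new DNA into chromatin. Transcription of many of these genes is known to rise at the G1/S boundary through E2F factors, which cyclin E with its kinase helps to release from RB1. HEK293T cells express the adenoviral E1A protein and SV40 large T antigen, which bind RB1.

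Gene reads numbered between 17474404 and 21081942 a library, so that 3 reads corresponded to 0.145 to 0.17 CPM (gene counts relative to the library's TMM-scaled total). Such floors cover counting error only. A number after a group's name gives the replicate. The Tet guides were checked on the reporter: EGFP had 920 and 1090 CPM in sgTet, against 3.23 and 4.42 CPM in sgNT, and 804 and 708 CPM in crTet, against 2.77 and 2.66 CPM in crNT. The crNT libraries stood apart in unmapped reads, which made up 14.4% and 12.7% of their reads, against 8.32% to 9.62% in the other 6. The deposited tables of the 2 activators carry different name prefixes, so the activator and any difference in handling cannot be told apart. The HEK293T markers VIM, KRT8, KRT18, PAX2, NEFL and NEFM were present in every library. The leukocyte genes PTPRC and CD68 were at 0 in every library, and COL1A2, CDH5, VWF and TEK did not exceed 0.155 CPM in any, while COL1A1 had 32.4 to 44.4 CPM.

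In these bulk libraries a gene's level cannot separate the number of cells in S phase from the RNA per cell. Together the 40 genes held 7787 and 7862 CPM in sgTet, 7815 and 7722 CPM in sgNT, 7025 and 7156 CPM in crTet, and 7401 and 7330 CPM in crNT. Both dCasMINI-VPR groups lay above both dCas12a-VPR groups in this sum, and crTet was lowest. Per gene, the highest library exceeded the lowest by 1.11-fold for CDC45 to 1.98-fold for TYMS, and only CCNE1, UHRF1, CHAF1A, GINS3 and TYMS passed 1.5-fold. In TYMS, the thymidylate synthase gene, that range came from 1 library: it had 34.2 and 19.7 CPM in sgTet, 19.9 and 22.2 CPM in sgNT, 23 and 23.4 CPM in crTet, and 17.2 and 21.5 CPM in crNT. Of its exon length, 46.6% is shared with ENOSF1 and TYMSOS, so its reads cannot be assigned with certainty. The same holds in part for CCNE2 (37.1% of its exon length shared), GINS4 and MCM2 (23.6% each), PRIM1 (21.6%), RRM2 (20.2%) and GINS3 (10.9%), and PCNA, RPA2 and RRM2 have 3 named pseudogenes each.

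**Figure D1:**
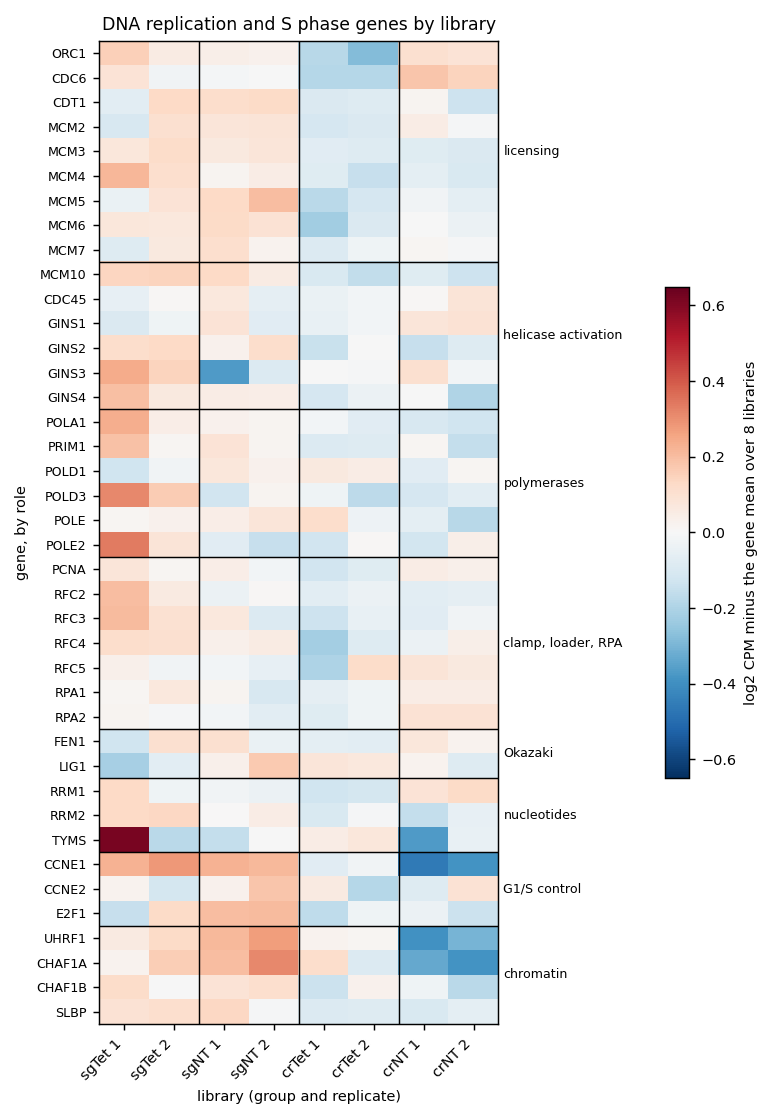
Level of each of the 40 genes (rows, by role) in each of the 8 libraries (columns), as log2 CPM minus the gene's mean over the libraries. CCNE1, UHRF1 and CHAF1A are blue in both crNT columns and pale or red in the dCasMINI-VPR columns, and TYMS is dark red in sgTet 1 alone.

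Promoter letters are shown for 5 genes, chosen for their calls between the activators: UHRF1, CHAF1A and CCNE1 because they differed most, and E2F1 and MCM6 as an E2F gene and a helicase gene called with smaller differences. Each line gives the 250 bases before the RefSeq transcription start (GRCh38.p14), read 5′ to 3′ on the gene's strand. UHRF1 lies at chr19:4909251-4909500 (plus strand), CHAF1A at chr19:4402390-4402639 (plus), CCNE1 at chr19:29811741-29811990 (plus), E2F1 at chr20:33686386-33686635 (minus) and MCM6 at chr2:135876444-135876693 (minus). Capitals mark E2F-type words (TTTCCCGC, TTTGGCGC, TTTCGCGC or TTTGCCGC) and the CCAAT word, each on either strand.
UHRF1: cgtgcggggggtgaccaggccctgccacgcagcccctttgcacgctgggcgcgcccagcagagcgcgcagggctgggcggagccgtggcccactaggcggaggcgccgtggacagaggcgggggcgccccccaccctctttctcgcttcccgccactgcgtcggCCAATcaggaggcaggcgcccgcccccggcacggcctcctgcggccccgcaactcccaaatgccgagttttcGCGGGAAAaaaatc
CHAF1A: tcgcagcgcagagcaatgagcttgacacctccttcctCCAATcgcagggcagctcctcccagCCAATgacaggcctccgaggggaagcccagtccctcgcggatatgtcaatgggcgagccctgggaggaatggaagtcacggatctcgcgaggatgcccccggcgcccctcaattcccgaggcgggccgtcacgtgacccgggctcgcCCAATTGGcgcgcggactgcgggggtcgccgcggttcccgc
CCNE1: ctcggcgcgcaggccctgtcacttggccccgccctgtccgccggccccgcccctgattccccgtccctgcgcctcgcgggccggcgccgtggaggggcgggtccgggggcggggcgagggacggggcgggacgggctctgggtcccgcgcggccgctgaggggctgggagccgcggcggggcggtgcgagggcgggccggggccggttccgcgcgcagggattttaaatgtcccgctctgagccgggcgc
E2F1: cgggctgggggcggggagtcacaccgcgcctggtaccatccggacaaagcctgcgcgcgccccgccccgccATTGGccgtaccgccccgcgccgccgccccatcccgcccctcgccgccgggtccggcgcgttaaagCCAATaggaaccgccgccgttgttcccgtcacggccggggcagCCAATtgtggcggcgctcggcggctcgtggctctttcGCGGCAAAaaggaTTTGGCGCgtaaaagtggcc
MCM6: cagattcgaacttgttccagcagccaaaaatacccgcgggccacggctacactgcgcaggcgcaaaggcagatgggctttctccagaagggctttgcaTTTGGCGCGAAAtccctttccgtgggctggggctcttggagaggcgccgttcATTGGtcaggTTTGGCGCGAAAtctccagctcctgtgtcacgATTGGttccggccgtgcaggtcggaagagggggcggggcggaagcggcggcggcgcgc
The MCM6 stretch holds 4 E2F-type words as overlapping pairs, that of E2F1 holds 2 and that of UHRF1 holds 1, whereas those of CHAF1A and CCNE1 hold none of these letters. Over a window of 300 bases (250 before the start and 50 after), 34 of the 40 genes had a promoter entry, and 18 of these (52.9%) held an E2F-type word, against 3.31% of all 35116 promoters. A CCAAT word was present in 20 of the 34 (58.8%), against 34.6% of all promoters. E2F-type words were present in CDC6, CDT1, MCM2, MCM3, MCM6, MCM7, GINS1, GINS2, GINS3, POLA1, POLE, POLE2, PCNA, RFC3, LIG1, TYMS, E2F1 and UHRF1. The genes not matched were MCM4, MCM5, GINS4, POLD3, RPA2 and CCNE2. A match is a description of letters and not a measured binding site.

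Levels of different genes were compared per kilobase of the principal transcript, as the mean over the 8 libraries. PCNA, the sliding clamp that holds polymerases on DNA, was highest with 382 CPM per kilobase, followed by the helicase subunit MCM7 with 233 and RPA2, a subunit of the single-strand binding protein, with 154. The other MCM2 to MCM7 subunits, which form 1 ring, ranged from 91.2 (MCM6) to 144 (MCM4) CPM per kilobase. The loading factors stood lower, with 23.5 for ORC1, 41.2 for CDC6 and 57.4 for CDT1. Of the 4 GINS subunits, which form a complex of 1 copy each, GINS2 had 58.6, GINS1 42.3, GINS3 19.3 and GINS4 11.8 CPM per kilobase. The 6 polymerase and primase genes ranged from 16.7 (POLE) to 29.8 (POLD1). CCNE1 had 15.6 and CCNE2 3.84 CPM per kilobase, CCNE2 being the lowest of the 40. Reads counted as ambiguous, 10.4% to 11.2% of a library, were left out, while lengths include bases shared with other genes. The shared part of the exon length is 37.1% in CCNE2, 23.6% in GINS4, 21.6% in PRIM1 and 10.9% in GINS3. Levels of such genes may therefore be too low, by an amount that was not measured.

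**Figure D2:**
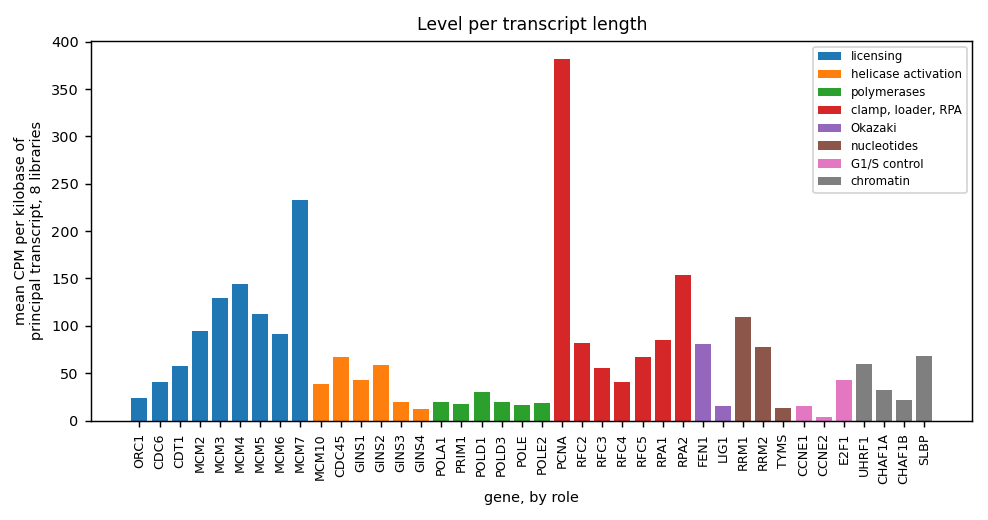
Mean CPM per kilobase of principal transcript over the 8 libraries (vertical axis, linear from 0) for each of the 40 genes, coloured by role. PCNA at 382, MCM7 at 233 and RPA2 at 154 are the tallest bars, and CCNE2 at 3.84 is the shortest. Bars of genes that share exon bases with other genes may be too low.

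The first comparison set sgTet against sgNT, and asks which replication genes the Tet guide changed when dCasMINI-VPR was the activator. None of the 40 genes was called by edgeR's quasi-likelihood test (adjusted p under 0.05 by Benjamini-Hochberg over all genes tested), where 0.795% of all genes were called. DESeq2 called 0 as well, beside 0.735% of all genes. By edgeR's test 6 of the 40 had an unadjusted p under 0.05, beside 2046 of the 16606 genes tested. Log2 fold changes ran from -0.24 to 0.42, with a median of 0.038 against 0 over all genes, and 24 of the 40 were positive. With library size scaling in place of TMM that median was -0.002, against -0.039 over all genes, and 20 of the 40 were positive. The count of positive genes thus moved with the scaling, and no direction is given for the list. Both sgTet libraries lay above both sgNT libraries for 15 of the 40 and below for 9, against 20.6% and 20.2% of all genes.

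The largest difference was in GINS3, a subunit of the GINS complex that activates the helicase. It had 51.4 and 48.1 CPM in sgTet, against 33.7 and 40.8 CPM in sgNT. The sgTet libraries were both higher, and sgNT 1 was the lowest of the 8. Its log2 fold change of 0.42 ± 0.11 (SE) missed the threshold of edgeR's test (adjusted p = 0.0584). It passed without the filter on low counts, with a replicate block, with the GC and length trend removed, and without sgTet 2. POLD3, an accessory subunit of polymerase delta, had 90.5 and 81.7 CPM in sgTet, against 67 and 74 CPM in sgNT (0.29 ± 0.09, edgeR adjusted p = 0.153). POLE2, the second subunit of polymerase epsilon, had 40.8 and 34.2 CPM in sgTet, against 30.6 and 29 CPM in sgNT (0.33 ± 0.12, edgeR adjusted p = 0.218). The groups did not overlap for either gene, and sgTet 1 was the highest library in both. LIG1, the ligase that seals Okazaki fragments, had 43.4 and 48 CPM in sgTet, against 51.5 and 56.7 CPM in sgNT (-0.24 ± 0.10, edgeR adjusted p = 0.299). Without sgTet 2, leaving sgTet 1 alone in its group, 5 of the 40 were called, beside 8.34% of all genes: GINS3, POLD3, POLE2, TYMS and E2F1. The sgTet replicates were the least alike of the 4 groups, with a chi-square per degree of freedom of 12.5 between them, against 3.8 in sgNT, 6.47 in crTet and 3.12 in crNT.

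With dCas12a-VPR the Tet guide was compared in crTet against crNT, and 6 of the 40 genes were called, against 6.32% of all genes. UHRF1, CHAF1A and CCNE1 rose, where 3.56% of all genes rose, and CDC6, ORC1 and RRM1 fell, where 2.75% of all genes fell. The median log2 fold change of the 40 was -0.028, against 0.008 over all genes, with 14 positive and 26 negative. Both crTet libraries lay above both crNT libraries for 8 of the 40 and below for 14, against 26.3% of all genes each way. DESeq2 called the same 6, beside 6.29% of all genes. Fold changes rose with transcript GC content over 12746 genes (Spearman rho 0.298, a description across genes that are not independent). That content was 58.7% in UHRF1, 57.6% in CHAF1A and 52.9% in CCNE1. It was 45.5% in CDC6, 50.7% in ORC1 and 43% in RRM1, against a median of 49.3% in all genes tested. With a GC and length trend removed, these calls but that of RRM1 stayed, beside 7.86% of all genes.

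Among the chromatin genes, UHRF1 (ENSG00000276043.5, hg38 chromosome 19, 4903080 to 4962154) recruits the maintenance DNA methyltransferase to new DNA. It had 193 and 192 CPM in crTet, against 145 and 154 CPM in crNT. The crTet libraries agreed closely and both crNT libraries were lower. That is a log2 fold change of 0.36 ± 0.07 (SE, edgeR adjusted p = 0.00197), a call lost without crNT 1 (adjusted p = 0.143 by the same test). CHAF1A (ENSG00000167670.16, chromosome 19, 4402662 to 4445018), the large subunit of the chromatin assembly factor that places histones behind the fork, had 115 and 100 CPM in crTet, against 84.8 and 81.6 CPM in crNT. The groups did not overlap, and the crTet libraries differed from each other by nearly as much as crTet 2 from crNT 1. Its change of 0.38 ± 0.09 (edgeR adjusted p = 0.00641) was lost without crNT 1 (adjusted p = 0.0956), crNT 2 (0.115) or crTet 1 (0.158). CHAF1B, the next subunit of the same factor, had 88.7 and 99.6 CPM in crTet, against 95.9 and 86.5 CPM in crNT, and the groups overlapped. SLBP, which binds the stem-loop of histone messages, had 126 and 127 CPM in crTet, against 126 and 129 CPM in crNT.

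Of the G1/S genes, CCNE1 (ENSG00000105173.14, chromosome 19, 29811898 to 29824308), which encodes cyclin E1, had 29.7 and 30.8 CPM in crTet, against 22.7 and 23.9 CPM in crNT. The replicates of each group lay close together and the groups did not overlap. The rise of 0.37 ± 0.11 (edgeR adjusted p = 0.0454) sat near the threshold and was lost without crNT 1 (adjusted p = 0.409), crNT 2 (0.187), crTet 1 (0.12) or crTet 2 (0.208). It was also lost without sgNT 1 (edgeR adjusted p = 0.0677) or sgNT 2 (0.0665), which enter the shared spread, with library size scaling (0.0688) or without the filter on low counts (0.0576). E2F1, the transcription factor that drives many replication genes, had 94.3 and 103 CPM in crTet, against 103 and 95.7 CPM in crNT, and the groups overlapped. CCNE2, the cyclin E2 gene, had 13.3 and 11.2 CPM in crTet, against 12 and 13.6 CPM in crNT, likewise overlapping.

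The genes that fell belong to origin licensing and nucleotide supply. CDC6 (ENSG00000094804.12, chromosome 17, 40287633 to 40304657) had 174 CPM in both crTet libraries, against 223 and 218 CPM in crNT. The fall was the largest among the 9 licensing genes, at -0.35 ± 0.07 (edgeR adjusted p = 0.00287), lost without crNT 1 (adjusted p = 0.109). ORC1, the largest subunit of the origin recognition complex (ENSG00000085840.13, chromosome 1, 52372829 to 52404459), had 65.1 and 60.7 CPM in crTet, against 79.3 and 78.4 CPM in crNT. Both crTet libraries were the lowest of the 8. The fall of -0.33 ± 0.09 (edgeR adjusted p = 0.0228) was lost without crNT 1 (adjusted p = 0.253), crNT 2 (0.157), crTet 1 (0.0522) or crTet 2 (0.204). RRM1, the large subunit of ribonucleotide reductase, which makes deoxyribonucleotides (chromosome 11, 4094707 to 4138876), had 305 and 309 CPM in crTet, against 355 and 363 CPM in crNT. Its fall of -0.23 ± 0.07 (edgeR adjusted p = 0.0451) was lost in 6 of the 8 fits that each left out 1 library, namely without crNT 1 (adjusted p = 0.29), crNT 2 (0.307), crTet 1 (0.168), crTet 2 (0.156), sgNT 1 (0.0836) or sgNT 2 (0.084). It was lost too with the GC and length trend removed (-0.15, adjusted p = 0.0825). RRM2, the small subunit of the same enzyme, had 249 and 265 CPM in crTet, against 239 and 256 CPM in crNT, so the subunits' levels moved in opposite directions, RRM2 by less than its replicate spread.

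The other helicase and fork genes were not called with dCas12a-VPR. Of the 9 licensing genes 8 had a negative log2 fold change and MCM3 alone a positive one (0.01). With library size scaling, where the median over all genes was -0.022, all 9 were negative. The MCM2 to MCM7 ring subunits ranged from -0.14 (MCM6) to 0.01. Of the 7 clamp, loader and RPA genes 6 were negative, from -0.15 (RPA2 and RFC4) to -0.04 (RFC3), and RFC2 was at 0.01, while with library size scaling all 7 were negative. PCNA had 477 and 492 CPM in crTet, against 537 and 532 CPM in crNT (-0.14 ± 0.07, edgeR adjusted p = 0.229), and RPA2 had 255 and 265 CPM in crTet, against 287 and 288 CPM in crNT (-0.15 ± 0.07, edgeR adjusted p = 0.228). In both the groups stood apart without passing the test across all genes. The 6 helicase activation genes ran from -0.12 (GINS1) to 0.05 (GINS2), and the 6 polymerase genes from -0.02 (POLE2) to 0.17 (POLE).

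**Figure D3:**
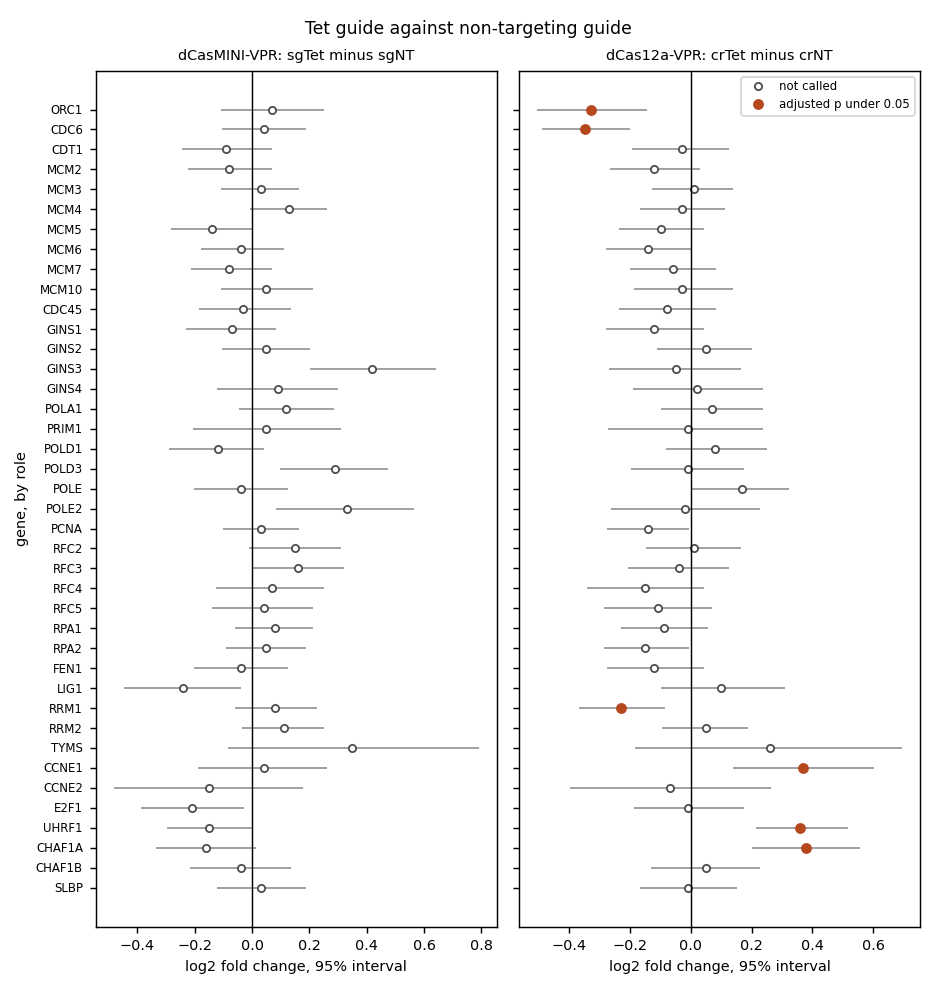
Log2 fold change (horizontal axis) of each of the 40 genes between the Tet and the non-targeting guide, with dCasMINI-VPR (left) and dCas12a-VPR (right). Lines are 95% intervals and filled points passed an adjusted p of 0.05. No point is filled for dCasMINI-VPR, and 6 are filled for dCas12a-VPR, 3 on each side of 0.

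The difference between the Tet guide effects, dCasMINI-VPR minus dCas12a-VPR, was tested directly, and 3 of the 40 genes were called, against 1.35% of all genes (0.506% positive and 0.843% negative). UHRF1 gave -0.51 ± 0.10 (edgeR adjusted p = 0.00765), with an effect of -0.15 for dCasMINI-VPR and 0.36 for dCas12a-VPR. CHAF1A gave -0.54 ± 0.12 (edgeR adjusted p = 0.0177), from effects of -0.16 and 0.38 in the same order. CDC6 gave 0.39 ± 0.10 (edgeR adjusted p = 0.0478), from 0.04 and -0.35. Of the 4 groups, crNT had the lowest levels of UHRF1 and CHAF1A and the highest of CDC6. UHRF1 lost its call without crNT 1 (adjusted p = 0.137) or sgNT 2 (0.12), and CHAF1A without crNT 1 (0.102), crNT 2 (0.112), crTet 1 (0.114) or sgNT 2 (0.213). CDC6 kept it only without sgTet 2: its adjusted p was 0.299 without crNT 1, 0.188 without crNT 2, 0.113 without crTet 1, 0.106 without crTet 2, 0.141 without sgNT 1, 0.282 without sgNT 2, 0.0572 without sgTet 1, and 0.054 with library size scaling. ORC1 (0.40, adjusted p = 0.0987), RRM1 (0.31, 0.102) and GINS3 (0.47, 0.109) came next and missed edgeR's threshold. Without sgTet 2, 9 of the 40 were called, beside 10.4% of all genes, namely these 6 with POLD3, LIG1 and E2F1. Without crNT 1 or sgNT 2 none was, beside 0.17% and 0.159% of all genes.

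Between the activators with non-targeting guides, sgNT was set against crNT, a comparison that shares its crNT libraries with the dCas12a-VPR guide comparison above. UHRF1, CHAF1A, CCNE1 and E2F1 were higher in sgNT, and none of the 40 was lower, against 7.68% of all genes called, 4.09% higher and 3.6% lower. The median log2 fold change was 0.107, against 0 over all genes, with 28 positive and 12 negative. Both sgNT libraries lay above both crNT libraries for 23 of the 40 and below for 7, against 27.3% and 27.9% of all genes.

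UHRF1 had 220 and 230 CPM in sgNT, against 145 and 154 CPM in crNT (0.59 ± 0.07, edgeR adjusted p = 7.86e-07), which is 1.5-fold (95% interval 1.35 to 1.67). CHAF1A had 123 and 132 CPM in sgNT, against 84.8 and 81.6 CPM in crNT (0.62 ± 0.09, edgeR adjusted p = 6.69e-06), or 1.53-fold (1.36 to 1.73). CCNE1 had 36.6 and 36.2 CPM in sgNT, against 22.7 and 23.9 CPM in crNT (0.64 ± 0.11, edgeR adjusted p = 0.000244), or 1.56-fold (1.33 to 1.83). In all 3 the gap between the group means was several times the SD of either group. These 3 calls held in each of the 8 fits that left out 1 library, with adjusted p-values up to 0.000715 for UHRF1, 0.00192 for CHAF1A and 0.0199 for CCNE1 by edgeR's test, and under the 7 other alternatives. E2F1 had 121 and 122 CPM in sgNT, against 103 and 95.7 CPM in crNT (0.29 ± 0.09, edgeR adjusted p = 0.0372). That call was lost without sgNT 1 (adjusted p = 0.166), sgNT 2 (0.264), crNT 1 (0.148) or crNT 2 (0.337), and with library size scaling (0.0539). The unmapped share, which is also highest in crNT, moved with these differences, and its part in them was not tested.

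GINS3 and CDC6 lay the other way, GINS3 with 33.7 and 40.8 CPM in sgNT, against 46.8 and 43 CPM in crNT (-0.27 ± 0.11, edgeR adjusted p = 0.132), and CDC6 with 195 and 197 CPM in sgNT, against 223 and 218 CPM in crNT (-0.17 ± 0.07, edgeR adjusted p = 0.155). The groups did not overlap for either, but neither passed. The number of calls depended on the fit: with the 4 libraries of this comparison alone 18 of the 40 were called, beside 19% of all genes in that fit. With the GC and length trend removed 12 were called, beside 10.4%, against 4 beside 7.68% in the model of all libraries. Fold changes of this comparison rose with transcript GC content (Spearman rho 0.246 over 12746 genes). Leaving out sgTet 1 or sgTet 2, the spread of which enters the shared model, gave 8, beside 12.1% of all genes in either fit.

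With Tet guides, sgTet was set against crTet, and 36 of the 40 log2 fold changes were positive (34 with library size scaling). Their median was 0.175, against -0.002 over all genes. The calls were 5, all higher in sgTet, where 4.28% of all genes were called, 1.68% higher and 2.6% lower. MCM4, a helicase subunit, had 699 and 650 CPM in sgTet, against 569 and 543 CPM in crTet (0.28 ± 0.07, edgeR adjusted p = 0.0115). ORC1 had 82.1 and 76.5 CPM in sgTet, against 65.1 and 60.7 CPM in crTet (0.33 ± 0.09, edgeR adjusted p = 0.0234). POLD3 had 90.5 and 81.7 CPM in sgTet, against 71.5 and 64.9 CPM in crTet (0.34 ± 0.09, edgeR adjusted p = 0.0282). In each of the 3, both sgTet libraries were above both crTet libraries. MCM10, which helps the helicase to start, had 133 CPM in both sgTet libraries, against 112 and 108 CPM in crTet (0.28 ± 0.08, edgeR adjusted p = 0.0364). MCM6 had 358 and 357 CPM in sgTet, against 290 and 318 CPM in crTet (0.23 ± 0.07, edgeR adjusted p = 0.0475). UHRF1, CHAF1A and CCNE1, which led the other activator comparison, were not called here, with log2 fold changes of 0.08, 0.08 and 0.30. The change of the activator difference from one guide to the other is the same quantity as the difference between the Tet guide effects, which passed for UHRF1 and CHAF1A and not for CCNE1 (-0.34, edgeR adjusted p = 0.293).

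Each of these 5 calls was lost in some fit that left out 1 library. MCM4 was lost without sgTet 1 (adjusted p = 0.0607 by edgeR's test) or crTet 2 (0.133). ORC1 was lost without sgTet 1 (0.112), crTet 1 (0.0597), crTet 2 (0.223), crNT 1 (0.0548) or crNT 2 (0.0542), and POLD3 without sgTet 1 (0.177), crTet 1 (0.0517), crTet 2 (0.284), crNT 1 (0.0587) or crNT 2 (0.0579). MCM10 and MCM6 were kept only without sgTet 2, and otherwise reached adjusted p-values from 0.0535 to 0.254 and from 0.0569 to 0.33. Without sgTet 2, 12 of the 40 were called, beside 12.2% of all genes. None was called without sgTet 1 (2.21% of all genes), without crTet 2 (1.88%) or with only the 4 libraries of the comparison (2%). With the GC and length trend removed 17 were called, beside 8.03%. Fold changes of this comparison fell with transcript GC content over 12746 genes (Spearman rho -0.326, a description across genes that are not independent), and the median GC content was 48.6% in the 40 genes and 49.3% in all genes tested. Both sgTet libraries lay above both crTet libraries for 26 of the 40 and below for 2, POLD1 and LIG1, against 22% and 22.5% of all genes.

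By role, the 9 licensing genes, the 7 clamp, loader and RPA genes and the 4 chromatin genes each had only positive log2 fold changes between sgTet and crTet, with TMM, DESeq2 size factors and library size scaling. Licensing genes ran from 0.05 (MCM7) to 0.33 (ORC1) and clamp, loader and RPA genes from 0.04 (RFC5) to 0.26 (RFC4). Between sgNT and crNT the clamp, loader and RPA genes ran from -0.14 (RPA2) to 0.05 (RFC2), and 4 of the 7 were negative. The ring subunits MCM2 to MCM7 were positive in both activator comparisons, from 0.05 (MCM7) to 0.28 (MCM4) with Tet guides and from 0.06 (MCM2) to 0.21 (MCM5) with non-targeting guides.

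Averaging the activator difference over both guides, a contrast added after the values were seen, called 12 of the 40 higher with dCasMINI-VPR and 0 lower, against 4.83% and 5.2% of all genes (10% in either direction). DESeq2 called 11 higher and 0 lower, beside 9.18% of all genes in either direction. The median was 0.146, against 0.002 over all genes. CCNE1 (0.47 ± 0.08, edgeR adjusted p = 9.79e-05), CHAF1A (0.35 ± 0.06, 0.000158) and UHRF1 (0.33 ± 0.05, 3.02e-05) led and kept their calls whichever library was left out. For UHRF1 and CHAF1A that mean came mainly from the non-targeting guides, and neither was called between sgTet and crTet. UHRF1 averaged 203 CPM in sgTet against 193 in crTet, and 225 in sgNT against 150 in crNT. CHAF1A averaged 114 CPM in sgTet against 108 in crTet, and 128 in sgNT against 83.2 in crNT. In CHAF1A crTet 1 (115 CPM) lay above sgTet 1 (109 CPM). The helicase genes followed: MCM10 (0.24), MCM4 (0.20), MCM5 (0.19), GINS2 (0.19), MCM6 (0.18) and MCM3 (0.17), with edgeR adjusted p-values from 0.00425 to 0.0191. MCM5 had 387 and 424 CPM in sgTet and 436 and 458 CPM in sgNT, against 354 and 369 CPM in crTet and 392 and 381 CPM in crNT. MCM3 had 434 and 449 CPM in sgTet and 432 and 435 CPM in sgNT, against 392 and 390 CPM in crTet and 391 and 386 CPM in crNT. For MCM3 all 4 dCasMINI-VPR libraries stood above all 4 dCas12a-VPR libraries, whereas for MCM5 sgTet 1 fell below crNT 1.

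The remaining calls were E2F1 (0.19, edgeR adjusted p = 0.0491), SLBP (0.17, 0.0485) and RRM2 (0.16, 0.04), each close to the threshold. RRM2 had 291 and 292 CPM in sgTet and 267 and 275 CPM in sgNT, against 249 and 265 CPM in crTet and 239 and 256 CPM in crNT. SLBP had 143 and 145 CPM in sgTet and 148 and 133 CPM in sgNT, against 126 and 127 CPM in crTet and 126 and 129 CPM in crNT. All 4 libraries with dCasMINI-VPR were above all 4 with dCas12a-VPR for 12 of the 40 (MCM3, MCM4, MCM6, MCM10, GINS2, GINS4, POLA1, RFC2, RRM2, CCNE1, UHRF1 and SLBP) and below for 0, against 4.09% and 5.62% of all genes. The other 9 calls were lost without crNT 2, where the 3 leading genes alone passed, with adjusted p-values over the 8 fits of up to 0.0517 for MCM10, 0.0571 for MCM4, 0.102 for MCM6, 0.106 for MCM5, 0.119 for MCM3, 0.147 for GINS2, 0.241 for E2F1, 0.279 for RRM2 and 0.281 for SLBP. Leaving out 1 library changed the number of called genes, all of them higher with dCasMINI-VPR, and the median ran from 0.111 to 0.151. With the GC and length trend removed 23 were called, again all higher, beside 15.8% of all genes. The GC trend itself was small in this contrast (rho -0.0304 over 12746 genes).

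**Figure D4:**
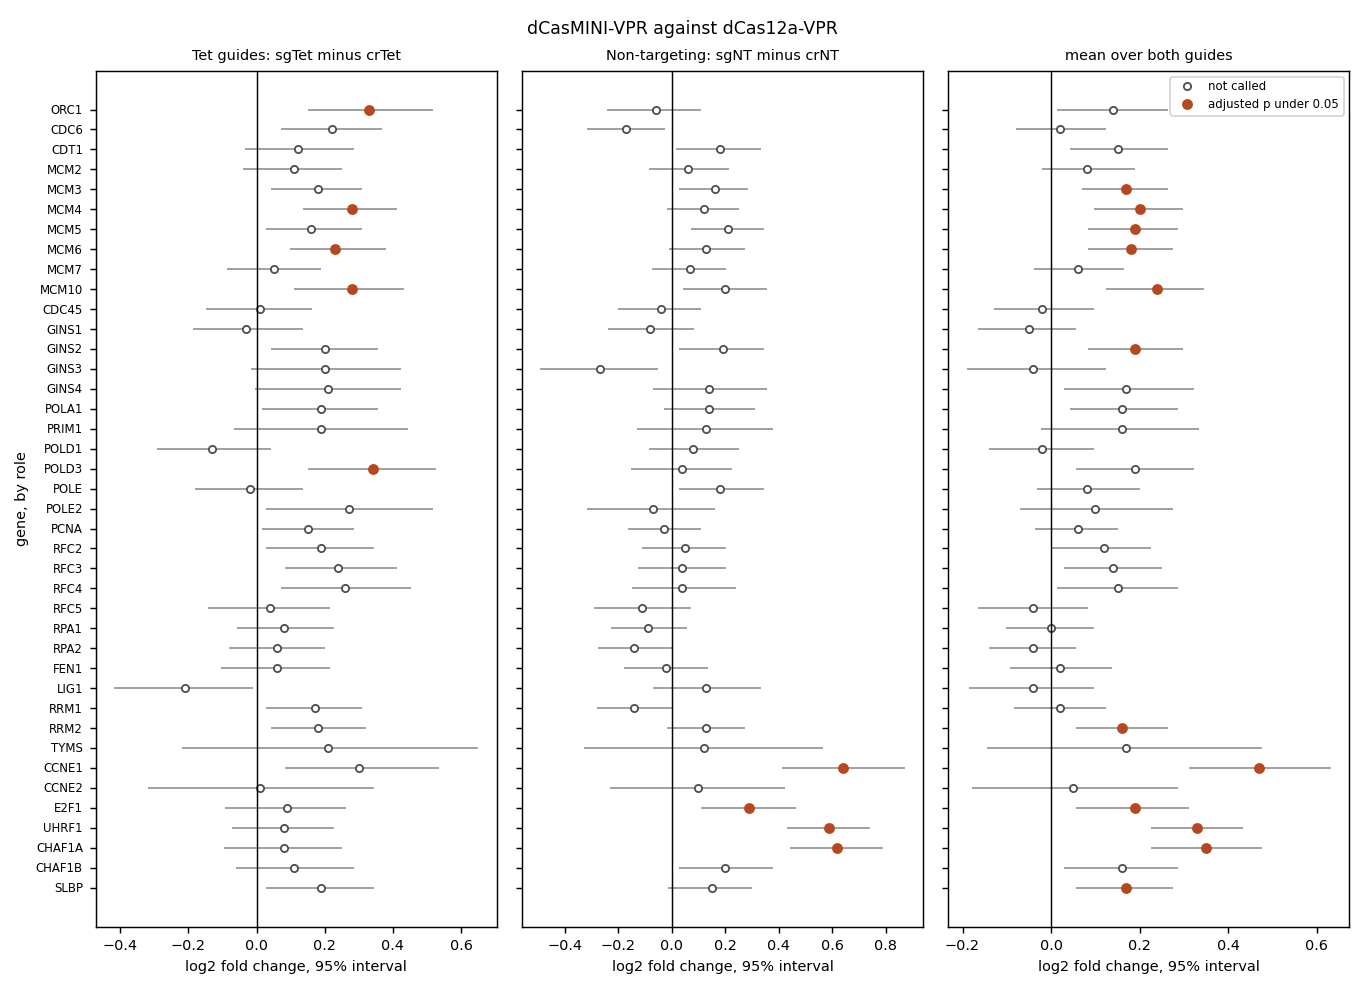
Log2 fold change of each of the 40 genes with dCasMINI-VPR over dCas12a-VPR (horizontal axis, lines are 95% intervals), with Tet guides (left), with non-targeting guides (middle) and averaged over both (right). Filled points passed an adjusted p of 0.05: 5 on the left, 4 in the middle and 12 on the right, all above 0.

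The 7 tests include the mean over both guides, which was added after the values were seen. Over them, 17 of the 40 genes were called at least once, against 18% of all genes, and 23 were never called. MCM3, GINS2, RRM2 and SLBP were called only in that mean. The 23 were CDT1, MCM2, MCM7, CDC45, GINS1, GINS4, POLA1, PRIM1, POLD1, POLE, POLE2, PCNA, RFC2, RFC3, RFC4, RFC5, RPA1, RPA2, FEN1, LIG1, TYMS, CCNE2 and CHAF1B. The catalytic subunit genes of the replicative polymerases belong here: POLA1 had 99.4 to 128 CPM over the 8 libraries, POLD1 93.8 to 108 CPM and POLE 115 to 141 CPM. The clamp loader genes RFC2 (132 to 160 CPM), RFC3 (120 to 152), RFC4 (50 to 63.1) and RFC5 (96.4 to 121) were not called either. Nor were CDC45 (134 to 148 CPM), which travels with the helicase, FEN1 (170 to 200 CPM), the nuclease that trims Okazaki fragments, and RPA1 (345 to 389 CPM), the large RPA subunit. Nearest to the threshold among the 23 were POLA1 and CDT1 in the mean over both guides (0.16, edgeR adjusted p = 0.0709, and 0.15, 0.0777) and RFC3 between sgTet and crTet (0.24, 0.0754). A missed threshold does not show that these genes had the same level in the groups.

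A test of any difference among the 4 groups called 12 of the 40, against 14.3% of all genes. These were UHRF1, CHAF1A, CCNE1, CDC6, ORC1, MCM4, MCM5, MCM6, MCM10, GINS3, POLD3 and E2F1. The count was 3 without crNT 1 or crNT 2, beside 4.79% and 6.37% of all genes, and 23 without sgTet 2, beside 24.7%. Set in order, UHRF1 averaged 203 ± 6.95 CPM in sgTet, 225 ± 6.75 CPM in sgNT, 193 ± 0.911 CPM in crTet and 150 ± 6.49 CPM in crNT (SD, n = 2 each). CHAF1A averaged 114 ± 7.44 CPM in sgTet, 128 ± 6.79 CPM in sgNT, 108 ± 10.6 CPM in crTet and 83.2 ± 2.26 CPM in crNT (SD, n = 2 each). In both genes sgNT was highest and crNT lowest, and sgTet and crTet, neighbours in the order, lay within 0.08 on the log2 scale. CCNE1 averaged 37.3 ± 0.978 CPM in sgTet, 36.4 ± 0.234 CPM in sgNT, 30.2 ± 0.749 CPM in crTet and 23.3 ± 0.837 CPM in crNT (SD, n = 2 each), and its sgTet and sgNT libraries differed by 0.04 on the log2 scale.

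**Figure D5:**
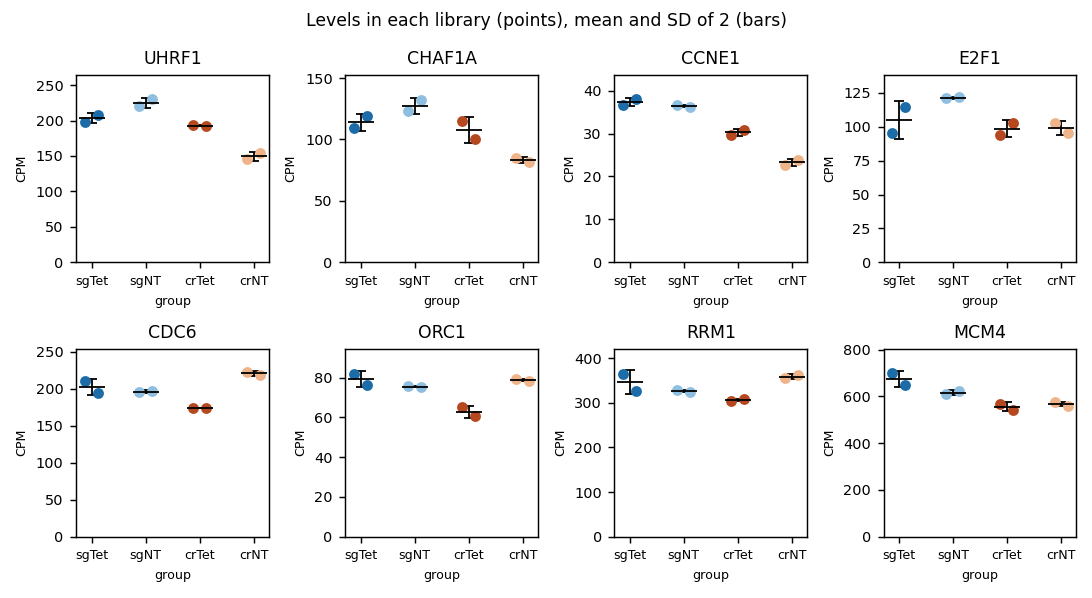
CPM (vertical axes from 0) of 8 called genes in each library, points by group from left to right sgTet, sgNT, crTet and crNT, with bars for the mean and SD of 2 libraries. UHRF1, CHAF1A and CCNE1 are lowest in crNT, CDC6 is highest there, and ORC1 and RRM1 are lowest in crTet.

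Genes of the same pathways outside the 40 were followed in 5 lists of 96 genes, of which 95 were tested. The nearest to them were 31 other genes of the replication machinery. By edgeR's test 0 were called between sgTet and sgNT and 0 between sgTet and crTet, where 0.795% and 4.28% of all genes were called. Between crTet and crNT 2 were called higher (6.45%, against 3.56% of all genes). Between sgNT and crNT 3 were called higher (9.68%, against 4.09% of all genes). CLSPN, which encodes the checkpoint adaptor claspin, had 66.7 and 61.9 CPM in crTet and 65.6 and 69.9 CPM in sgNT, against 46.8 and 43.6 CPM in crNT (0.51, edgeR adjusted p = 0.000863, and 0.58, 7e-05). CHTF18, a subunit of an alternative clamp loader, had 36.9 and 40.8 CPM in crTet and 44.6 and 47.8 CPM in sgNT, against 27.2 and 25.9 CPM in crNT (0.55, edgeR adjusted p = 0.00211, and 0.80, 5.88e-06). The first of these calls was lost without crNT 2 (adjusted p = 0.0558 by the same test). Both had their lowest levels in crNT. Between sgTet and crTet this list's median was 0.171, with 26 of 31 positive, 13 at an unadjusted p under 0.05 and 2 called by DESeq2. There 3100 of the 16606 genes tested had such a p, and DESeq2 called 4.1% of all genes. For its count of 0 between sgTet and sgNT, 3 had an unadjusted p under 0.05, beside 2046 of the 16606, and DESeq2 called 0.

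The cyclin-dependent kinase inhibitor CDKN1A, which holds cells before S phase, was lower in sgTet than in sgNT, in crTet than in crNT, in sgNT than in crNT and in sgTet than in crTet. It had 168 and 190 CPM in sgTet, 231 and 220 CPM in sgNT, 273 and 270 CPM in crTet, and 394 and 370 CPM in crNT. The 4 groups did not overlap, and sgTet was lowest. Against sgNT the sgTet libraries fell by 0.33 on the log2 scale (edgeR adjusted p = 0.0173), a call lost without sgTet 1 (adjusted p = 0.173), sgNT 1 (0.308) or sgNT 2 (0.124), and with only the 4 libraries of the comparison (0.0979). Against crNT the crTet libraries fell by 0.49 (edgeR adjusted p = 7.76e-05). The log2 fold change was -0.76 in sgNT over crNT (edgeR adjusted p = 3.52e-09) and -0.60 in sgTet over crTet (8.03e-07). Of the 27 G1/S regulators, CDKN1A included, 1 was called between sgTet and sgNT, 4 between crTet and crNT, 1 between sgNT and crNT and 2 between sgTet and crTet. That is 3.7%, 14.8%, 3.7% and 7.41%, against 0.795%, 6.32%, 7.68% and 4.28% of all genes. Between crTet and crNT the inhibitor gene CDKN1B rose, with 30.4 and 33.7 CPM, against 23.1 and 25 CPM. CDC25A fell, with 188 and 182 CPM in crTet, against 232 and 214 CPM in crNT. Each of these 2 calls held in 4 of the 8 fits that left out 1 library. RB1, the pocket protein that restrains E2F factors, had 123 and 110 CPM in crTet, against 146 and 151 CPM in crNT (-0.35, edgeR adjusted p = 0.0109). That call was lost without crTet 2 (adjusted p = 0.189), crNT 1 (0.105) or crNT 2 (0.134), by edgeR's test.

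Of 10 other nucleotide supply genes, 1 rose between sgTet and sgNT, 1 rose and 2 fell between crTet and crNT. Between sgNT and crNT 2 fell, and between sgTet and crTet 2 rose and 1 fell. These calls are 10%, 30%, 20% and 30% of the list, against 0.795%, 6.32%, 7.68% and 4.28% of all genes. NME1, a nucleoside diphosphate kinase, was called with the Tet guide of both activators. It had 69.7 and 62.1 CPM in sgTet, against 36.4 and 33 CPM in sgNT (0.92, edgeR adjusted p = 1.09e-05), and 41.7 and 56 CPM in crTet, against 29.2 and 31.2 CPM in crNT (0.69, adjusted p = 0.000438). The groups did not overlap in either pair, and 18.6% of its exon length is shared with the read-through gene NME1-NME2. SAMHD1, which degrades deoxyribonucleotides, had 243 and 232 CPM in crTet and 201 and 181 CPM in sgNT, against 304 and 289 CPM in crNT (-0.32, edgeR adjusted p = 0.00599, and -0.63, 2e-07). The first of these calls was lost without crTet 2 (edgeR adjusted p = 0.0845) or crNT 1 (0.196). RRM2B, the small reductase subunit used outside S phase, had 119 and 112 CPM in crTet and 125 and 114 CPM in sgNT, against 167 and 165 CPM in crNT (-0.53, edgeR adjusted p = 9.15e-05, and -0.47, 0.000121).

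Of 8 other chromatin replication genes, 2 were called higher between crTet and crNT, 2 between sgNT and crNT and 1 between sgTet and crTet. That is 25%, 25% and 12.5% of the list, against 3.56%, 4.09% and 1.68% of all genes called higher. The call between sgTet and crTet was ATAD2, with 138 and 107 CPM in sgTet, against 98 and 97.8 CPM in crTet. It was lost with library size scaling, with DESeq2 and with only the 4 libraries of the comparison. Leaving out single libraries lost it in most fits too. Between sgTet and sgNT edgeR and DESeq2 called 0, and 1 had an unadjusted p under 0.05. There edgeR called 0.795% of all genes, and 2046 of the 16606 genes tested had an unadjusted p under 0.05. DNMT1, the maintenance DNA methyltransferase that UHRF1 recruits, had 236 and 213 CPM in crTet and 244 and 263 CPM in sgNT, against 183 and 186 CPM in crNT (0.28, edgeR adjusted p = 0.0154, and 0.46, 5.89e-05). The first of these calls was lost without crTet 1 (edgeR adjusted p = 0.212), crNT 1 (0.251) or crNT 2 (0.132). As in UHRF1, the crNT libraries were the lowest. Of the 20 genes of G2 and M phase 19 were tested, with 0 calls between sgTet and sgNT and 0 between sgTet and crTet, by edgeR's test. All genes had 0.795% and 4.28% called there. Between crTet and crNT 3 were higher (15.8%, against 3.56% of all genes), and between sgNT and crNT 2 were (10.5%, against 4.09%). For the counts of 0, DESeq2 called 0 as well, and 1 and 2 genes had an unadjusted p under 0.05. Of the 16606 genes tested, 2046 and 3100 had such a p. MKI67, the proliferation marker Ki-67, had 64.2 and 53.3 CPM in crTet and 48.1 and 68.4 CPM in sgNT, against 21.5 and 28.7 CPM in crNT (1.23, edgeR adjusted p = 0.00484, and 1.21, 0.00354). CENPE, a kinetochore motor, had 16.4 and 13 CPM in crTet and 12.2 and 14.1 CPM in sgNT, against 7.38 and 6.3 CPM in crNT (1.10, edgeR adjusted p = 0.00135, and 0.94, 0.00397). The second CENPE call was lost without sgNT 2 (edgeR adjusted p = 0.0965) or crNT 2 (0.0814). These are the 2 longest transcripts named here, at 12678 and 8612 bases. Their calls in both comparisons held with the GC and length trend removed, and the part of transcript length was not tested for them singly. UBE2C, the other call between crTet and crNT, has a transcript of 850 bases. It had 140 and 157 CPM in crTet, against 108 and 122 CPM in crNT. Between sgTet and crTet the list's median was 0.054, with 10 of 19 positive, beside 0.175 and 36 of 40 for the replication genes.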

How the data were processed

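Messenger RNA libraries were sequenced on an Illumina NovaSeq 6000 instrument, per the labels. Per the submitters' processing notes, reads were aligned to hg38 by the authors using STAR, whose version is not given in the sources used here. The deposited values are raw read counts of each gene, with 1 table a library and no normalization. The count column that ignores strand was used. The tables' 4 totals that name no gene, 25.3% to 29.9% of a library's reads, were left out. Symbols were matched for 42222 gene rows and positions for 58405 (GENCODE release 29). Counts were fitted in 1 model of all 8 libraries with 4 group means in edgeR 4.0.16 (quasi-likelihood, robust, two-sided) under R 4.3.3, with TMM factors and edgeR's filterByExpr. There were 4 residual degrees of freedom and a common biological coefficient of variation of 8.04%. The threshold for a call was 0.05 after Benjamini-Hochberg adjustment across the 16606 genes tested. Where 1 library of a group was left out, the other was taken to have the same spread as the remaining groups. The group comparisons, the difference of the guide effects, the mean over both guides (added after the values were seen) and a test of any difference were run. Alternatives were library size scaling, DESeq2 size factors, DESeq2 1.42.0, no filter, a replicate block, only the 4 libraries of a comparison, each library left out and, chosen after seeing the data, removal of a GC and length trend (spline with 5 degrees of freedom). The edgeR step was tested on simulated data. CPM are TMM-scaled counts. The promoter sequences are from RefSeq (GRCh38.p14). The 40 genes and the 5 companion lists were chosen with earlier results of these data known. Members could all be named; of each companion list, up to 4 called genes a comparison by smallest adjusted p could be.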

Additional observations from a re-analysis of the deposited data

Results flagged for a closer look

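The effect of the Tet guide differed between the activators in 3 of the 40 genes, against 1.35% of all genes, by the test of the difference itself (dCasMINI-VPR minus dCas12a-VPR, edgeR with Benjamini-Hochberg adjustment). UHRF1 gave -0.51 on the log2 scale (adjusted p = 0.00765), with 198 and 208 CPM in sgTet, against 220 and 230 CPM in sgNT, and 193 and 192 CPM in crTet, against 145 and 154 CPM in crNT. CHAF1A gave -0.54 (adjusted p = 0.0177), with 109 and 119 CPM in sgTet, against 123 and 132 CPM in sgNT, and 115 and 100 CPM in crTet, against 84.8 and 81.6 CPM in crNT. CDC6 gave 0.39 (adjusted p = 0.0478), with 210 and 194 CPM in sgTet, against 195 and 197 CPM in sgNT, and 174 CPM in both crTet libraries, against 223 and 218 CPM in crNT. Unmapped reads were 14.4% and 12.7% in crNT and 8.32% to 9.62% in the other libraries, and fold changes of this contrast fell with transcript GC content (Spearman rho -0.474 over 12746 genes). Of the 8 fits that each left out 1 library, UHRF1 lost its call in 2, CHAF1A in 4 and CDC6 in 7, and CDC6 lost it with library size scaling too (adjusted p = 0.054 by edgeR's test). All 3 were called with the GC and length trend removed, and the part of the unmapped share was not tested.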

How the results depend on the processing

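None of the 30 member calls changed sign, and 102 of 240 tests that left out 1 library and 21 of 195 under the other alternatives lost the call. Those 30 calls include the 12 of the mean over both guides, a contrast added after the values were seen. Between sgTet and sgNT, 1 gene (GINS3) was called without the filter, with the replicate block or with the GC and length trend removed. All genes had 0.873%, 1.05% and 1.43% called in these fits. The median there was -0.002 with library size scaling, against -0.039 over all genes. Between crTet and crNT the median was -0.058 with library size scaling, against -0.022 over all genes. Between sgNT and crNT 18 genes were called with only the 4 libraries of the comparison (19% of all genes) and 12 with the trend removed (10.4%). Between sgTet and crTet 2 were called with library size scaling (3.91% of all genes), with a median of 0.152, against -0.025 over all genes. Calls there were 3 without the filter (2.67%), 0 with only the 4 libraries (2% of all genes) and 17 with the trend removed (8.03%). With that trend removed, 23 were called over both guides (15.8% of all genes) and 22 in the test of any difference (19.9%). Leaving out 1 library, calls ranged from 0 to 5 between sgTet and sgNT (median 0.017 to 0.051), 0 to 6 between crTet and crNT (-0.049 to -0.021), 0 to 9 for the difference (0.036 to 0.111), 3 to 8 between sgNT and crNT (0.079 to 0.108), 0 to 12 between sgTet and crTet (0.142 to 0.185), 3 to 17 over both guides (0.111 to 0.151) and 3 to 23 in the test of any difference. The cause was not tested. The labels do not say whether same-numbered libraries belong together. Differences between replicates 1 and 2 correlated between groups by -0.0545 to 0.113, which cannot settle that. The replicate block left 6 calls between crTet and crNT and 12 over both guides, and gave 5 in place of 4 between sgNT and crNT. Of all genes it raised the share called in these comparisons from 6.32% to 7.56%, from 10% to 11% and from 7.68% to 8.75%. The lowest level of any of the 40 genes in a library was 11.2 CPM (CCNE2), above the floor of 0.145 to 0.17 CPM for 3 reads.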
